A study of Mus musculus with 4 samples.

Results

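The genes described here encode the nuclear subunits of oxidative phosphorylation, measured in a mouse ovarian cancer cell line and in a line selected from it in the omentum. Members were the probes that are not controls and whose RefSeq accession maps to a symbol beginning with Nduf, Uqcr, Cox4 to Cox8, or Atp5, or to 1 of the succinate dehydrogenase genes Sdha to Sdhd. The rule uses names only. It found 92 genes, represented by 114 probes, among 22911 gene symbols and 56605 probes on the array. Of these genes, 36 encode subunits of complex I, 4 of complex II, 8 of complex III, 19 of complex IV, and 17 of complex V, and the other 8 encode assembly factors of complex I. The proteins made from mitochondrial DNA were not analysed here.

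Oxidative phosphorylation takes place in the inner membrane of mitochondria. Complexes I and II pass electrons from NADH and succinate to ubiquinone, complex III hands them to cytochrome c, and complex IV transfers them to oxygen. Complexes I, III, and IV pump protons, and complex V, the ATP synthase, uses the return of those protons to make ATP. Tumor cells keep this pathway to differing degrees beside glycolysis, and some subunits of complex IV have isoforms that are largely restricted to muscle, heart, lung, or testis.

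ID8G is a GFP-expressing derivative of ID8, a line of mouse ovarian surface epithelial cells that forms tumors in the peritoneal cavity. GO2 was obtained from ID8G by 2 rounds of intraperitoneal injection into female C57BL/6 J mice 7 to 9 weeks old, in which GFP-positive cells were sorted from omental tumors months after injection. GO2 is thus 1 selected line. Both lines were grown in the same DMEM with serum, insulin, transferrin, and selenite, and RNA was hybridized to 1-color arrays, 2 per line. The labels do not say that the arrays of a line came from separate cultures, so p-values measure the spread between these samples, which may be technical. Levels are relative amounts in bulk RNA, in which fewer cells of a type and less RNA per cell cannot be told apart.

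The 4 arrays were alike in brightness, with between 27507 and 28876 probes well above background, and their number limits the precision. Correlations over the tested probes were 0.997 within each line and 0.967 to 0.968 between the lines. Keratin markers of the epithelium were present but lower in GO2, with log2 differences of −0.55 for Krt8, −0.81 for Krt18, and −1.65 for Krt19, whereas Epcam and Krt7 were not well above background in either line. All 5 mesothelial markers were bright in both lines, with Upk3b higher in GO2 (1.08), Msln lower (−0.82), and the other 3 not called. Of the 6 fibroblast markers, 3 were bright in ID8G and 4 in GO2, and their summed linear level was 65.9 and 68.7 on the ID8G arrays against 64.4 and 66.8 on the GO2 arrays. Within that list Col3a1 differed by 4.20 and Pdgfra by 3.70 in the direction of GO2, and Dcn by −0.63. Of the 7 macrophage markers, Cd68, Csf1r, and Cd14 were bright in both lines and 4, among them Ptprc and Adgre1, in neither. Cd14 was lower in GO2 by a log2 difference of −0.69, and Cd68 and Csf1r were not called. Of the endothelial markers, 4 of 5 were not well above background. Summed macrophage marker levels were 4.13 and 4.19 in ID8G and 3.72 and 4.12 in GO2. The part of these markers in the results below was not tested.

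Many nuclear genes of respiration carry promoter motifs for the transcription factor NRF1 (nuclear respiratory factor 1) and for factors of the ETS family such as GABPA, so the 250 bases before the transcription start were read from the RefSeq promoter table for GRCm38.p6. Both strands were searched for the NRF1 motif, written as GCGCA, then any base, then GCGC, and for the ETS core, written as CCGGAAG. Neither motif contains the other. Of the 92 genes, 75 had a promoter in that table. The NRF1 motif was found in 14 of them (18.7%) and in 4.23% of the promoters of all 27025 genes, and the ETS core in 14 (18.7%) against 7.83% of all genes. Shown are 4 of the members that fell in GO2 and, below them, 2 that rose. Capitals mark motif matches, which are descriptions of the letters and not of binding.
Cox7a1, chr7:30183921-30184170, plus strand: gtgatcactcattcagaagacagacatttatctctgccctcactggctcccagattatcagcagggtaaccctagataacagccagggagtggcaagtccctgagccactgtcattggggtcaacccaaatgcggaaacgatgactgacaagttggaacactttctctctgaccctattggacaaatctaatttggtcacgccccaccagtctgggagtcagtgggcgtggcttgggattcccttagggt
Uqcrfs1, chr13:30545317-30545566, minus strand: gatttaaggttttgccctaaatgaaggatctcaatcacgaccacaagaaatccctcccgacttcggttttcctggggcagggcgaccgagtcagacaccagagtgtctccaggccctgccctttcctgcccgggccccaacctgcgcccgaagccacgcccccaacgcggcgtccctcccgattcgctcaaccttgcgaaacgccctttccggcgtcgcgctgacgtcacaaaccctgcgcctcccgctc
Cox7c, chr13:86046796-86047045, minus strand: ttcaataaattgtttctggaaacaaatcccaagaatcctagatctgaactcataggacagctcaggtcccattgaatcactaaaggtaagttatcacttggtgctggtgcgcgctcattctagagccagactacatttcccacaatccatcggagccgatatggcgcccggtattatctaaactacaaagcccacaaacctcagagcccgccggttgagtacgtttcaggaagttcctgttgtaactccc
Sdha, chr13:74350241-74350490, minus strand: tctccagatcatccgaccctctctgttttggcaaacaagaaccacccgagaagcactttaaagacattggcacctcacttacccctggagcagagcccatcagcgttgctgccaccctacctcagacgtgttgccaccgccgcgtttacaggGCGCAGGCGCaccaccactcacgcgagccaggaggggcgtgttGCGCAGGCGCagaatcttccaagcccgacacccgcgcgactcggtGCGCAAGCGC
Ndufb7, chr8:83566508-83566757, plus strand: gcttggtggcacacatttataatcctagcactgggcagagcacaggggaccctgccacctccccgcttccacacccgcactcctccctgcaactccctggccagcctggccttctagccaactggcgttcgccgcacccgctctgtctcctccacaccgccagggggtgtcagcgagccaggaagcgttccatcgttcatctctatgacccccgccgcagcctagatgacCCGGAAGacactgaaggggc
Uqcrc1, chr9:108936398-108936647, plus strand: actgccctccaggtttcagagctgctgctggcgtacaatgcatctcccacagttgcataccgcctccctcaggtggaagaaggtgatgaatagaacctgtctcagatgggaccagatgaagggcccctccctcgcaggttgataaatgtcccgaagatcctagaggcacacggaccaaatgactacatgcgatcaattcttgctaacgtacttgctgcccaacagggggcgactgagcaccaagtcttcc

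Sdha held 3 matches to the NRF1 motif and Ndufb7 held 1 match to the ETS core, whereas the other 4 windows held neither. Among members with a promoter in the table, the NRF1 motif was present in 3 of 13 that fell (Ndufs6, Sdha, and Sdhd), in 0 of 2 that rose, and in 11 of 58 that were tested and not called. For the ETS core these counts were 2 of 13 (Cox6b1 and Sdhd), 1 of 2, and 11 of 58. The shares of promoters with a motif in members that fell and in members not called were 23.1% and 19.0% for NRF1. For the ETS core they were 15.4% and 19.0%. With 13 promoters of members that fell, 1 gene moves a share by several points, so these counts cannot tell whether the shares differ.

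Most members were slightly lower in GO2 than in ID8G, and few differed much. Of the 92 genes, 88 had a probe that cleared the background on each array of ID8G, of GO2, or of both lines, and these were tested, and all of these but Cox6a2 (87 of 88) were bright on all 4 arrays. The median log2 difference, GO2 minus ID8G, was −0.10 over the 88 genes (quartiles −0.21 and 0.00) and −0.02 over all 22077 gene names tested. The difference was below 0 for 65 members (73.9%), against 52.9% of all gene names, and 86 members differed by less than 0.5 on the log2 scale, with Cox7a1 and Cox6a2 as the exceptions. On single arrays the members' median deviation from the ID8G mean was −0.06 on GO2 replicate 1 and −0.13 on GO2 replicate 2, so the shift was of unequal size on the 2 GO2 arrays.

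At an adjusted p below 0.05 (limma, Benjamini-Hochberg over all tested probes), 17 members fell (19.3%; background 18.9%) and 3 rose (3.41%; background 17.5%). The share of members that fell was close to that of all gene names, and the share that rose was lower. Arrays of the 2 lines did not overlap for 54 members lower in GO2 (61.4%; background 39.6%) and for 14 higher in GO2 (15.9%; background 34.5%). By the fitted values 1 member, Cox6a2, was called higher at 2-fold (background 4.78%) and 0 lower (background 3.5%), but Cox6a2 was not well above background in ID8G and its bound is 1.93-fold. Without adjustment 29 fell and 5 rose at a p below 0.05 (background 25.7% and 22.9%). By probe, 20 of 109 fell and 3 rose (background 18.9% and 17.0%), with 0 and 1 of them past 2-fold (background 3.34% and 4.5%). The 88 values hold 19 genes measured by several tested probes, whose differences had a median range of 0.03 and a largest range of 0.14 (Atp5b), and for 18 of these genes all probes gave the same call.

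The number of calls depended on the number of arrays and on the scaling. With 1 array left out, the lone array of a line was assumed to vary like the arrays of the other line, and fewer calls were made whichever array it was. In these fits 3 members fell and 1 rose without GO2 replicate 1, 2 fell and 2 rose (with Cox6b2) without GO2 replicate 2, and 2 fell and 1 rose without ID8G replicate 1 and also without ID8G replicate 2. The background was then 10.8% to 11.7% of all gene names lower and 10.3% to 11.6% higher. Cox7a1 and Uqcrfs1 stayed lower in each of these fits. Cox6a2 stayed higher, but it was dim in ID8G and entered the test only through GO2. Quantile normalization called 9 lower and 4 higher. It no longer called Atp5d, Cox5a, Ndufa6, Ndufs6, Ndufv1, Ndufv3, Sdhd, and Uqcrc2. Scaling to 7 spike-in transcripts moved the median of all gene names from −0.02 to −0.23 and called 34 lower and 1 higher, whereas the members' median relative to all gene names remained −0.08. Signs of the 17 lower members did not turn in any alternative. These 17 were called on the same arrays and showed no overlap between the lines. Leaving out 1 array therefore could not turn a sign, and the kept signs are no separate support.

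**Figure D1:**
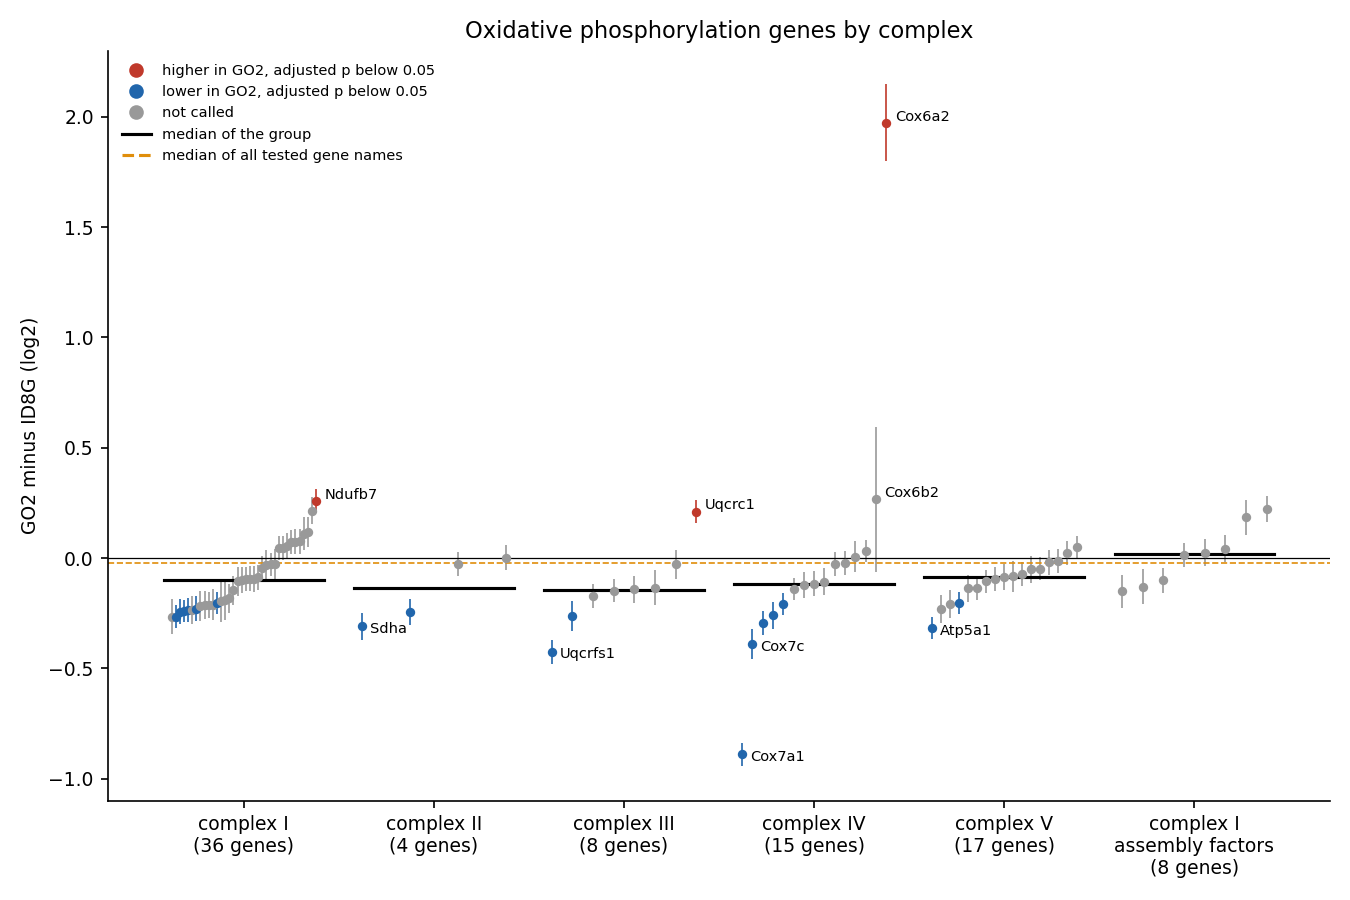
Each point is 1 tested gene, placed by complex and ordered by its difference, GO2 minus ID8G on the log2 scale (vertical axis), with its standard error; color marks the call, black bars are medians of each complex, and the dashed line is the median of all tested gene names. Medians of complexes I to V lie between −0.14 and −0.08, that of the assembly factors at 0.02, and Cox7a1 and Cox6a2 stand apart from the other points; the point of Cox6a2 is a fitted value against ID8G arrays not well above background, where only a bound of at least 1.93-fold holds.

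**Figure D2:**
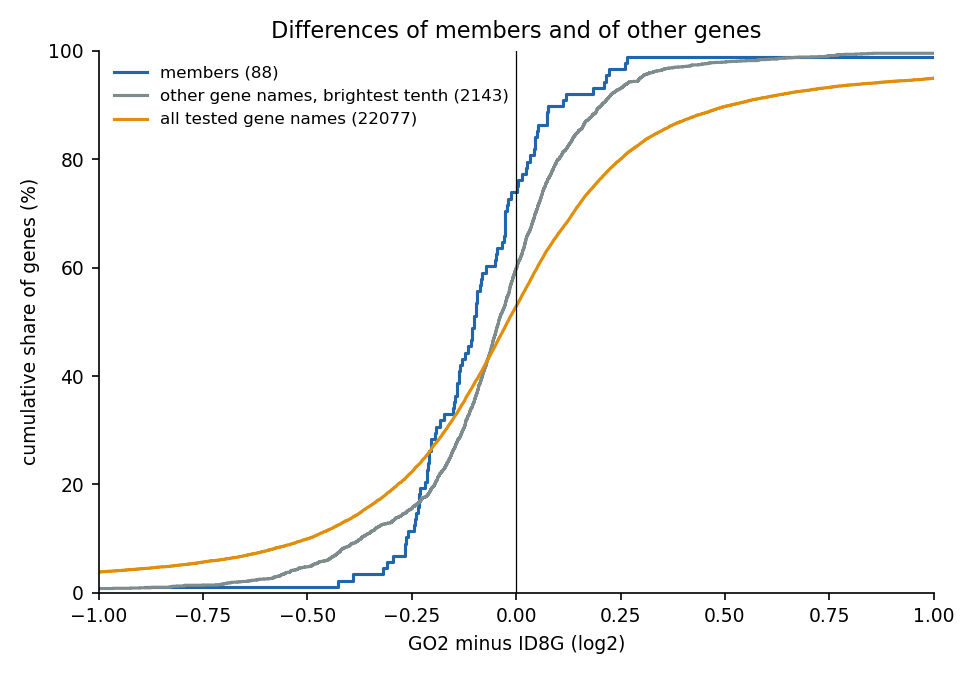
Cumulative share of genes (vertical axis, percent) by their log2 difference, GO2 minus ID8G (horizontal axis), for the 88 members, for the other gene names in the top 10% by mean signal, and for all tested gene names. The member curve is steeper than the curve of all gene names and passes 0 at 73.9%, against 52.9% for all gene names; the axis is limited to −1 to 1, so Cox6a2 is not drawn.

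Most members had bright probes, and 65 of the 88 lay in the top 10% of gene names by mean signal. There 52 of the 65 members (80.0%) and 59.9% of the 2143 other gene names had a difference below 0, with medians of −0.11 and −0.04. Of these members 14 fell (21.5%) and 1 rose (1.54%), against 17.0% and 8.87% of those other gene names. These ranks are of probe signals, which do not rank transcript amounts between genes.

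Complex I, which oxidizes NADH, had 36 tested members with a median difference of −0.10, of which 26 were below 0 (72.2%; background 52.9%), 6 fell (16.7%; background 18.9%), and 1 rose (2.78%; background 17.5%). Its subunits were also grouped by their place in the complex, a grouping made after values had been seen. The 8 subunits of the NADH-oxidizing tip were lower on both GO2 arrays without overlap, as were 39.6% of all gene names. Their median difference was −0.20, and 4 of the 8 fell. Among these were Ndufv3 (−0.24, SE 0.06, adjusted p = 0.037) and Ndufs6 (−0.24, SE 0.05, adjusted p = 0.0313). The large iron-sulfur subunit Ndufs1 (−0.24, SE 0.05, adjusted p = 0.035) and the NADH-binding flavoprotein Ndufv1 (−0.20, SE 0.05, adjusted p = 0.0418) fell too. The second probe of Ndufv1 gave −0.12 and was not called. The other 4, Ndufa2, Ndufs4, Ndufv2, and Ndufa12, had differences from −0.20 to −0.10.

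The core of the quinone-binding part did not share that direction. Ndufs7, which holds the last iron-sulfur cluster before ubiquinone, had log2 levels of 5.56 and 5.54 in ID8G and 5.31 and 5.26 in GO2. It fell by 0.27 on the log2 scale (SE 0.05, adjusted p = 0.0258). Ndufs3 and Ndufs8, which belong to the same core, had differences of 0.07 and 0.05 and were not called.

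Accessory subunits of complex I outside these parts went both ways. Ndufb7, a subunit of the membrane arm on its intermembrane face, read 6.28 and 6.22 in ID8G and 6.51 on both GO2 arrays. It rose by 0.26 (SE 0.05, adjusted p = 0.0285), and the arrays of the lines did not overlap. Among the 24 accessory subunits, 17 were below 0 (70.8%, background 52.9%). Ndufa6 was the 1 that fell (4.17%, background 18.9%), with a difference of −0.23 (adjusted p = 0.0418). Ndufa9, which borders the quinone site, read 4.67 and 4.52 in ID8G and 4.37 and 4.28 in GO2, a difference of −0.27 that missed the threshold (SE 0.08, adjusted p = 0.0662). Ndufa13, needed for assembly and one of the brightest probes of the complex, read 7.64 and 7.54 against 7.39 and 7.32 (−0.23, SE 0.06, adjusted p = 0.0545). Both genes were lower on each GO2 array than on either ID8G array, as were 39.6% of all gene names. The bright Ndufa5 read 7.01 and 7.06 against 6.95 and 6.74 (−0.19, SE 0.09, adjusted p = 0.175), and its other probe gave −0.08.

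The 8 assembly factors of complex I help build the complex and are not part of it. Limma called 0 of them at the adjusted p (background 18.9% lower and 17.5% higher). At an unadjusted p below 0.05, 1 rose (Ndufaf8, background 22.9%). The difference was below 0 for 3 of the 8 (37.5%, background 52.9%). Ndufaf8 read 1.13 on both ID8G arrays and 1.40 and 1.30 in GO2 (0.22, SE 0.06, adjusted p = 0.0545). Ndufaf6 read 1.05 on both ID8G arrays and 1.15 and 1.32 in GO2 (0.18, adjusted p = 0.14). Ndufaf8 and Ndufaf6 were the 2 of 8 whose GO2 arrays lay above the ID8G arrays without overlap (background 34.5%). The GO2 arrays of Ndufaf4 (−0.15), Ndufaf2 (−0.13), and Ndufaf7 (−0.10) lay below without overlap, 3 of 8 (37.5%, background 39.6%). The adjusted p-values of Ndufaf4, Ndufaf2, and Ndufaf7 were 0.194, 0.261, and 0.234. Neither share without overlap exceeded that of all gene names.

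Complex II is succinate dehydrogenase, which belongs both to the respiratory chain and to the tricarboxylic acid cycle. Sdha, the flavoprotein that oxidizes succinate, read 4.38 and 4.46 in ID8G and 4.15 and 4.07 in GO2. Sdhd, a membrane anchor, read 5.86 and 5.77 in ID8G and 5.58 and 5.57 in GO2. Both fell, by 0.31 (SE 0.06, adjusted p = 0.0271) and by 0.25 (SE 0.06, adjusted p = 0.0404), and both probes of Sdha were called. Sdhb, the iron-sulfur protein, read 6.17 on both ID8G arrays and 6.22 and 6.13 in GO2, and Sdhc, the other anchor, read 3.73 and 3.70 against 3.72 and 3.66. For these 2 genes the arrays of the lines overlapped, with differences of 0.00 (SE 0.06) and −0.03 (SE 0.06).

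Complex III passes electrons from ubiquinol to cytochrome c, and 7 of its 8 members were below 0 (median −0.14), with 2 of 8 that fell and 1 of 8 that rose (12.5%), beside 18.9% and 17.5% of all gene names. Uqcrfs1, the Rieske iron-sulfur protein that carries electrons within the complex, read 5.36 and 5.39 in ID8G and 4.98 and 4.92 in GO2. It fell by 0.43 (SE 0.05, adjusted p = 0.00871), and its signal fell by 25.6%. The paired core proteins differed in opposite directions, with adjusted p-values just below 0.05. Uqcrc1 read 4.31 and 4.34 in ID8G and 4.52 and 4.55 in GO2 and rose by 0.21 (SE 0.05, adjusted p = 0.0435), whereas Uqcrc2 read 5.49 and 5.38 against 5.21 and 5.13 and fell by 0.26 (SE 0.07, adjusted p = 0.0491). The arrays of the lines overlapped for neither gene. With spike-in scaling the difference of Uqcrc1 was 0.00 and that of Ndufb7 was 0.05, and neither was called. Both of these calls held with quantile normalization, but not with a block for the replicate number, with a t-test, or without the filter on dim probes. Uqcrc1 was not called with median centering either. Uqcrc2 was not called with quantile normalization, with outlier spots kept, with a t-test, or without that filter.

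All 5 small subunits of complex III had differences below 0 and were not called. The bright Uqcrh, which assists the contact with cytochrome c, read 7.60 and 7.55 in ID8G and 7.53 and 7.35 in GO2 (−0.13, SE 0.08, adjusted p = 0.263). Uqcrq read 8.22 and 8.15 against 8.20 and 8.10 (−0.03, SE 0.07, adjusted p = 0.75), and its arrays overlapped.

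**Figure D3:**
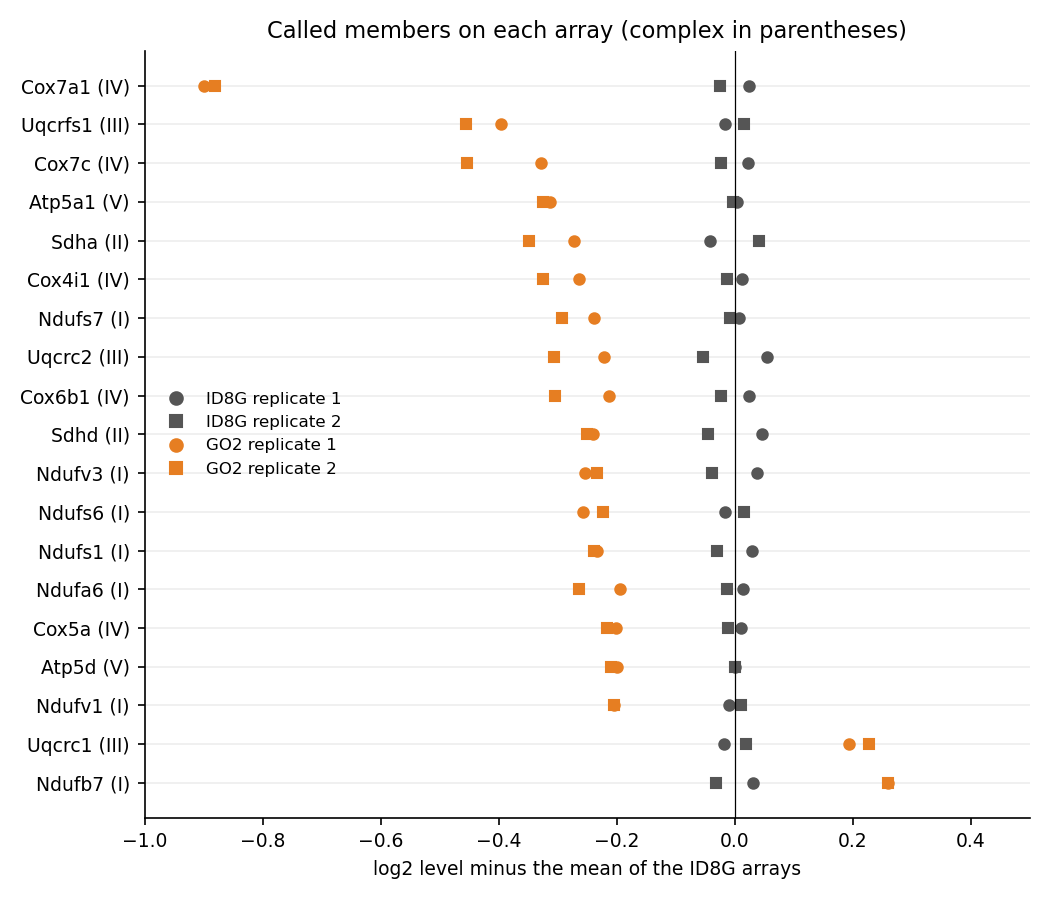
Log2 level of each called member on each array minus the mean of the ID8G arrays (horizontal axis), with circles and squares for replicates 1 and 2, gray for ID8G and orange for GO2; Cox6a2 is left out because its ID8G arrays were not well above background. For all 17 members that fell and for Ndufb7 and Uqcrc1, the GO2 arrays lie on 1 side of the ID8G arrays, with differences from −0.89 for Cox7a1 to 0.26 for Ndufb7. The members shown were chosen by their calls on these same arrays, which favors such a separation.

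Complex IV, cytochrome c oxidase, held the members with the largest differences in either direction. Of its 15 tested genes 5 fell (33.3%; background 18.9%) and 1 rose (6.67%; background 17.5%), and the median difference was −0.12. Cox7a1, the isoform typical of heart and skeletal muscle, read 1.35 and 1.30 in ID8G and 0.42 and 0.44 in GO2. It fell by 0.89 on the log2 scale (SE 0.05, adjusted p = 0.00125), and its signal fell by 46.0%. Among the members it had the smallest adjusted p.

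Cox6a2, another muscle isoform, rose, but from below the limit of detection. Its levels were −4.47 and −4.94 on the ID8G arrays, where it was not well above background, and −2.78 and −2.68 in GO2. Setting ID8G at the lowest signal called well above background or at the probe's own signal, whichever was higher, Cox6a2 was at least 1.93-fold higher in GO2. The limma fit gave an adjusted p of 0.00347 for the fitted difference of 1.97, not for this bound. Cox6a2 entered the test only through GO2, so it had to differ to be tested, and this p is no support. With values floored at the background limit, or with normexp background correction, it did not reach 2-fold.

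General subunits of complex IV that fell were Cox7c, Cox4i1, Cox6b1, and Cox5a. Cox7c, a small subunit of the membrane domain, read 5.91 and 5.86 in ID8G and 5.56 and 5.43 in GO2 (−0.39, SE 0.07, adjusted p = 0.0186), and its 2 probes gave the same difference to 2 decimals. Cox4i1, the general form of the largest nuclear-encoded subunit, read 7.16 and 7.14 in ID8G and 6.89 and 6.83 in GO2 (−0.29, SE 0.05, adjusted p = 0.0215). In each of these genes both GO2 arrays lay below both ID8G arrays. Cox6b1, which faces the intermembrane space, read 4.05 and 4.00 against 3.81 and 3.72 (−0.26, SE 0.06, adjusted p = 0.0391), and Cox5a had a difference of −0.21 (adjusted p = 0.0406).

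Other general subunits differed less. Cox6a1 read 8.90 and 8.93 in ID8G and 8.96 and 8.94 in GO2 (0.03, SE 0.05, adjusted p = 0.651). Cox8a read 8.57 and 8.63 against 8.59 and 8.56 (−0.02, SE 0.05, adjusted p = 0.766). Cox7a2 read 6.44 and 6.51 against 6.38 and 6.34 (−0.12, SE 0.06, adjusted p = 0.185). Differences of the general subunits thus ranged from −0.39 to 0.03. Cox7b (−0.11) and Ndufa4 (−0.14), which was first counted to complex I, had adjusted p-values of 0.24 and 0.0983, and Cox7a2l, which takes part in joining complexes III and IV, read 6.53 and 6.67 against 6.59 and 6.61 (0.01, SE 0.07).

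Isoform pairs of complex IV were compared by the log2 difference of the tissue isoform minus that of its general paralog. This was −0.77 (SE 0.07) for Cox7a1 against Cox7a2, 0.27 (SE 0.06) for Cox4i2 against Cox4i1, and 0.52 (SE 0.42) for Cox6b2 against Cox6b1. Cox6a2 was not set against Cox6a1, because its difference has only a lower bound. With Cox7a2l against Cox7a2 (0.12, SE 0.04), 4 pairs were compared, each with an exact permutation p of 0.333, two-sided, which is the smallest that 2 arrays against 2 can give, so no pair could pass a threshold. Cox4i2, an isoform of lung that responds to low oxygen, read 0.36 and 0.35 in ID8G and 0.30 and 0.36 in GO2, and its arrays overlapped. Cox6b2, the testis isoform, read −2.15 and −2.36 in ID8G and −1.53 and −2.45 in GO2, and GO2 replicate 1 alone was high (difference 0.27, SE 0.33, adjusted p = 0.563). The call without GO2 replicate 2 rests on that 1 array. Cox7b2, Cox8b, Cox8c, and Ndufa4l2 were not well above background on both arrays of either line and were not tested.

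**Figure D4:**
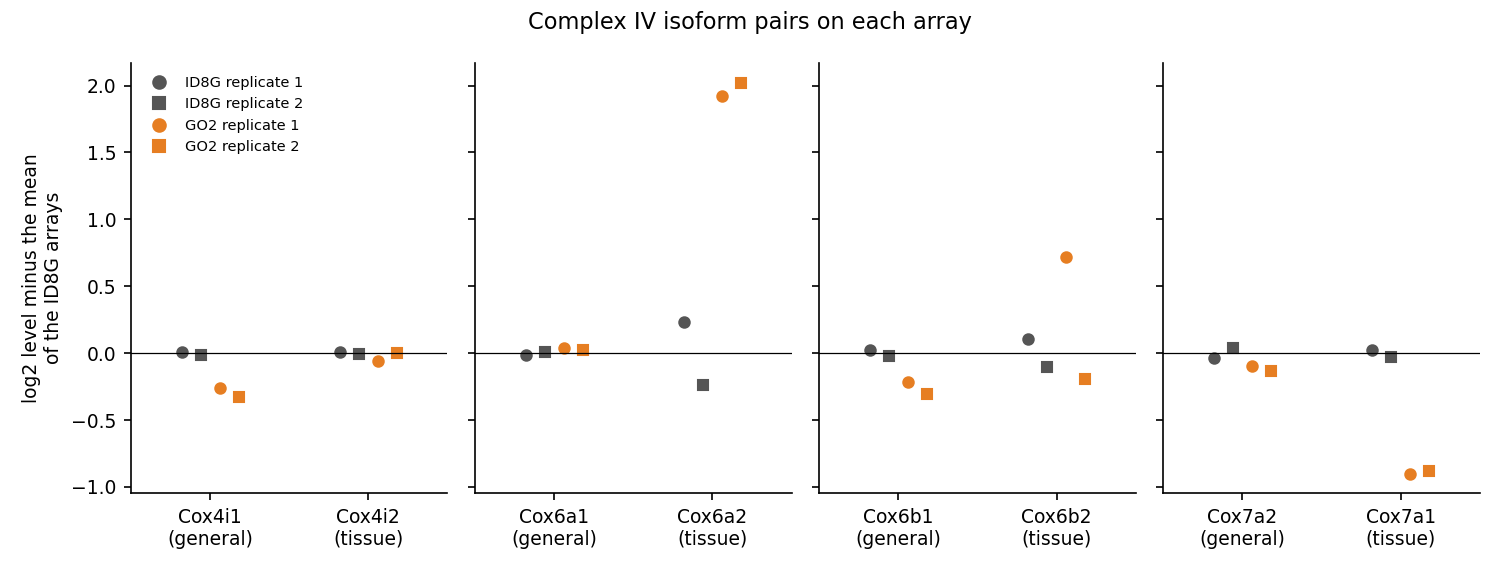
Log2 level on each array minus the mean of the ID8G arrays (vertical axis) for 4 pairs of a general and a tissue isoform of complex IV, with circles and squares for replicates 1 and 2, gray for ID8G and orange for GO2. Cox7a1 lies 0.89 lower in GO2, the GO2 arrays of Cox6a2 lie above its ID8G arrays, which were not well above background and allow only a bound of at least 1.93-fold, and the GO2 arrays of Cox6b2 lie on both sides of 0.

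Complex V had 17 tested members with a median of −0.08, of which 15 were below 0 (88.2%, background 52.9%). Of the 17, 2 fell (11.8%, background 18.9%) and 0 rose (background 17.5%). By limma's unadjusted p these counts were 4 and 0. Atp5a1, the alpha subunit of the catalytic head, read 6.87 on both ID8G arrays and 6.56 and 6.54 in GO2. It fell by 0.32 (SE 0.05, adjusted p = 0.014), and its second probe gave −0.32 as well. Atp5b, the catalytic beta subunit that alternates with alpha in the head, read 8.20 and 8.23 against 8.10 and 8.06, a difference of −0.14 that was not called (SE 0.05, adjusted p = 0.114), and another probe of this gene gave 0.00. In the central stalk Atp5d fell (−0.20, SE 0.05, adjusted p = 0.0411), whereas Atp5c1 and Atp5e had differences of 0.02 and −0.02.

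The 4 subunits of the peripheral stalk, which holds the head still, were below 0 and not called. The largest of their differences was that of Atp5o, which joins the stalk to the head and read 7.41 and 7.33 against 7.20 and 7.12 (−0.21, SE 0.06, adjusted p = 0.0674). The 3 genes Atp5g1, Atp5g2, and Atp5g3, encode the same mature subunit c of the rotor ring. Atp5g2 read 8.07 and 8.09 in ID8G and 7.90 and 7.79 in GO2 (−0.23, SE 0.06, adjusted p = 0.0557). Atp5g1 read 7.23 and 7.17 against 7.15 and 7.08 (−0.08, SE 0.06), whereas its other probe gave 0.05, also without overlap of the arrays. Atp5g3 read 7.74 and 7.68 against 7.71 and 7.70 (−0.01, SE 0.05). The arrays overlapped for Atp5g3.

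Further genes of mitochondrial respiration were read from lists of gene names. Of 7 partners of the chain, 4 fell (57.1%) and 0 rose, beside 18.9% and 17.5% of all gene names, which is the background for each list here. By limma's unadjusted p these counts were 5 and 0. Cytochrome c, Cycs, which carries electrons from complex III to complex IV, read 7.15 and 7.07 in ID8G and 6.78 and 6.58 in GO2 (−0.43, SE 0.09, adjusted p = 0.0293). Cyc1, the cytochrome c1 of complex III that the name rule does not take in, read 5.88 and 5.84 against 5.46 and 5.47 (−0.40, SE 0.05, adjusted p = 0.00888). Dhodh (−0.26) and Etfa (−0.21), which feed electrons to ubiquinone from pyrimidine synthesis and from fatty acid and amino acid oxidation, fell as well. The median of this list was −0.21, beside −0.02 over all gene names.

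Among 16 regulators and genes that maintain mitochondrial DNA, 6 fell (37.5%; background 18.9%) and 1 rose (6.25%; background 17.5%), with a median of −0.10. Ppargc1a, the coactivator PGC-1α that drives mitochondrial biogenesis, read 1.52 and 1.55 in ID8G and 0.34 and 0.27 in GO2. Ppargc1b, its relative PGC-1β, read −0.20 and −0.31 in ID8G and −1.53 and −1.37 in GO2. Both fell more than 2-fold, by 1.23 (SE 0.06, adjusted p = 0.000685) and by 1.20 (SE 0.08, adjusted p = 0.00184), and were the 2 genes of these lists past that size. Esrra, the nuclear receptor they coactivate, fell by 0.44 (SE 0.06, adjusted p = 0.00843), and the mitochondrial transcription and DNA factors Tfb1m, Tfam, and Ssbp1 fell by 0.34, 0.26, and 0.20. The third coactivator of the family, Pprc1, rose by 0.27 (SE 0.06, adjusted p = 0.0402). Nrf1 and Gabpa, whose motifs were searched above, had differences of −0.15 and −0.16 and were not called (adjusted p = 0.0919 and 0.181).

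Assembly factors with other names went both ways, with 9 of 39 tested lower (23.1%; background 18.9%) and 6 higher (15.4%; background 17.5%) and a median of −0.08. Cox18, which inserts a part of a complex IV subunit into the membrane, read 2.38 and 2.47 in ID8G and 2.93 and 2.84 in GO2 and rose by 0.46 (SE 0.07, adjusted p = 0.0116). Atpaf1, which assists assembly of the ATP synthase head, read 1.96 and 1.93 against 2.39 on both GO2 arrays and rose by 0.44 (SE 0.05, adjusted p = 0.00667). With spike-in scaling these 2 differences were 0.25 and 0.23 and were not called. Foxred1, a complex I factor, had the lowest difference of the list (−0.40, adjusted p = 0.0141).

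In the tricarboxylic acid cycle, which makes the NADH and succinate used by complexes I and II, 4 of 13 genes fell (30.8%; background 18.9%) and 0 rose (the same counts by limma's unadjusted p, median −0.11). Suclg2, a subunit of the succinyl-CoA ligase that makes GTP, read 1.22 on both ID8G arrays and 0.69 and 0.60 in GO2 (−0.58, SE 0.06, adjusted p = 0.00482). Idh3a, of the NAD-dependent isocitrate dehydrogenase, read 4.28 and 4.14 against 3.82 and 3.85 (−0.37, SE 0.07, adjusted p = 0.0232). Of 7 tested carriers and channels 2 fell (28.6%; background 18.9%) and 0 rose (3 and 0 by limma's unadjusted p, median −0.12). These were Slc25a5, an ADP/ATP carrier (−0.24, adjusted p = 0.0372), and Ucp2, an uncoupling protein homolog (−0.19, adjusted p = 0.0494), whose difference was −0.05 and not called when the probes of the gene were averaged. Of 78 genes of the mitochondrial ribosome 11 fell (14.1%; background 18.9%) and 4 rose (5.13%; background 17.5%), with a median of −0.02 and with the lowest differences for Mrpl34 (−0.53, SE 0.06, adjusted p = 0.00716) and Mrpl38 (−0.51, SE 0.05, adjusted p = 0.00515). The median of the ribosome list was that of all gene names to 2 decimals.

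**Figure D5:**
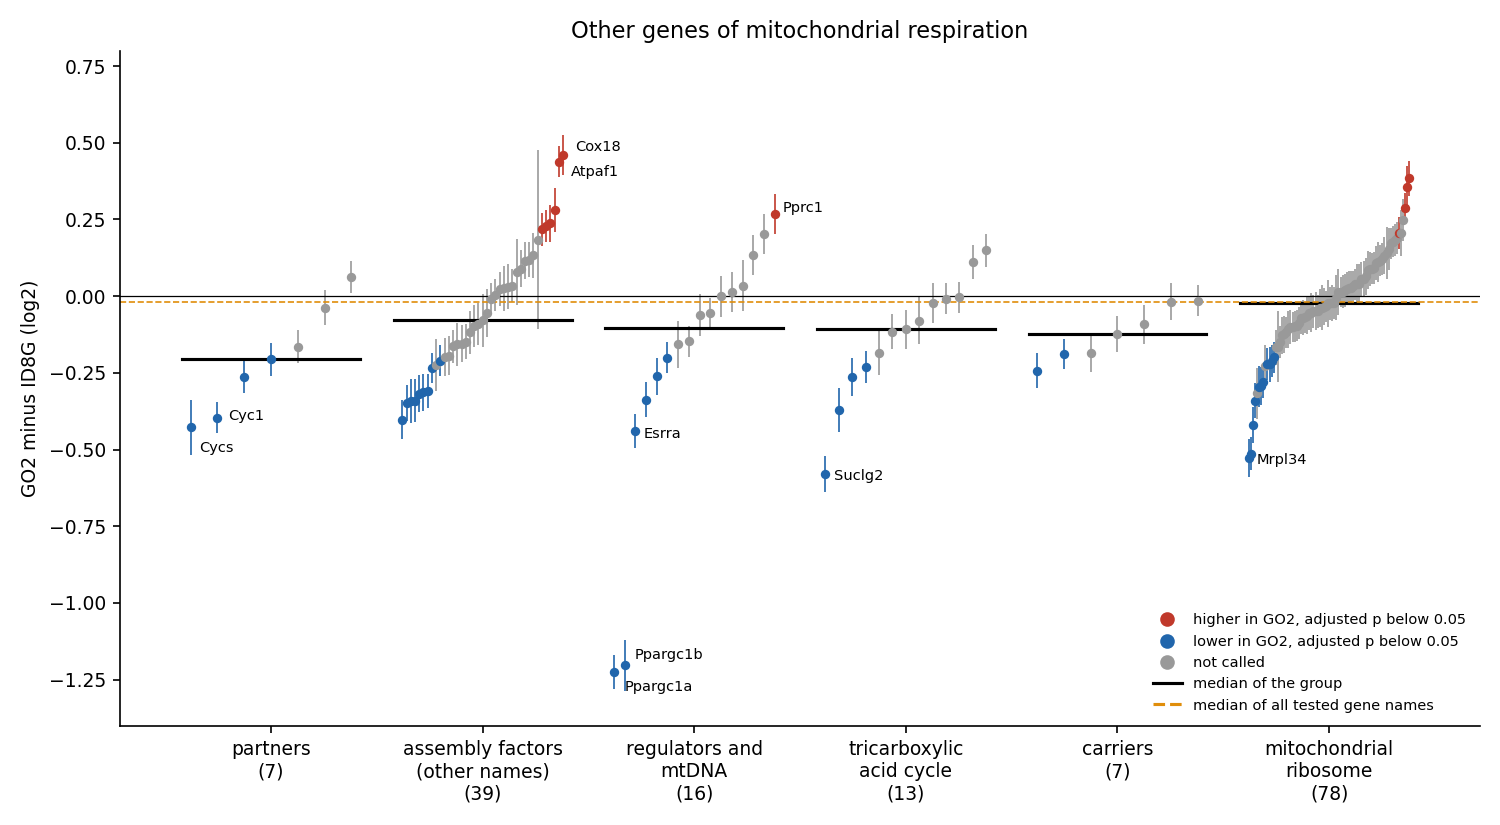
Each point is 1 tested gene of 6 lists of respiration genes outside the name rule, with its log2 difference, GO2 minus ID8G (vertical axis), and its standard error; color marks the call, black bars are list medians, and the dashed line is the median of all tested gene names. Ppargc1a and Ppargc1b lie at −1.23 and −1.20, below all other points, while the mitochondrial ribosome has a median of −0.02.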

How the data were processed

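RNA of cultured ID8G and GO2 cells was hybridized to Agilent mouse 8 × 60K arrays, 2 per line, all on 1 slide. The deposited scanner files give spot intensity after background subtraction by Feature Extraction 11.5.1.1, with no scaling between arrays. The deposited value table holds log2 values that the authors scaled to the 75th percentile and centered per probe, and it was used as an alternative. All of its columns could be assigned to an array (0 unused).

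Outlier spots were removed, spots of a probe were averaged, intensity was taken to log2, and the 75th percentile of the noncontrol probes of each array was subtracted. A probe was tested where each array of 1 line, or of both, called it well above background, with limma 3.58.1 in R 4.3.3 (two-sided, Benjamini-Hochberg over 28370 probes), and each gene is represented by its tested probe of highest mean signal. Names came from RefSeq accessions through a GRCm38.p6 table. Of 96 protein-coding symbols that match the rule, 4 had no matching probe. Figures were drawn with matplotlib 3.10.9. The fit was tested on simulated data with 28370 probes, in which it recovered 15 of 58 probes changed by 0.5, 61 of 64 changed by 1, and 75 of 78 changed by 2 on the log2 scale, with 21 false calls. These false calls were a larger share of its calls than 0.05. Far fewer probes changed there than were called in the data (17.0% higher and 18.9% lower). The adjusted threshold was thus stricter in the simulation, and its recovery does not carry over to these data.

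Members, lists, and markers were chosen with earlier results of these data known. Named are, from complexes I, III, IV, and V and the assembly factors, the 3 members with the largest absolute difference and the 2 brightest, all of complex II, members called at 2-fold, the tissue isoforms with their paralogs, the subunit c genes, and the 2 genes of each further list with the largest absolute difference. Other names were chosen after their values were seen. In the list of partners, Usmg5 was left out because its current symbol, Atp5md, is a member. Marker lists were epithelium, mesothelium, macrophage, lymphocyte, fibroblast, endothelium, adipocyte, and smooth muscle with pericyte. Of the lymphocyte markers, 1 of 5 was bright in both lines (Cd3e, not called). Of the adipocyte markers 2 were bright in ID8G and 1 in GO2 (Fabp4 was at least 6.34-fold lower), and of the smooth muscle markers 0 and 1 (Cnn1 at least 2.58-fold higher). Alternatives were other background correction (normexp with an offset of 50, on the median signal because no mean signal was given), scaling, filters, variance models, probe summaries, the methods' t-test, and leaving out each array. With 1 slide, no slide block could be fitted.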

Additional observations from a re-analysis of the deposited data

How the results depend on the processing

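Of the values of single named genes under the alternatives, 759 kept their side of the threshold, 30 passed it newly, 110 no longer passed it, and 0 called values turned sign. Many of these genes were named for the size of their difference on these same arrays, so kept signs are no separate support. Against 17 members lower and 3 higher, an intensity trend gave 34 and 5, unadjusted p-values 29 and 5, no filter on dim probes 1 and 1, and the methods' t-test 6 and 0 after adjustment (limma gave 3 higher, or 5 without adjustment). Quantile normalization gave 9 lower and spike-in scaling 34 lower and 1 higher, with 1 lower at 2-fold. No member was higher at 2-fold (0) with the floor, with normexp, with the t-test, or with probes bright on all 4 arrays only, where Cox6a2 was not tested. Leaving out 1 array gave 2 to 3 lower and 1 to 2 higher members.

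The members' median of −0.10 became −0.13 with median centering, −0.054 with quantile normalization, −0.31 with spike-in scaling, and −0.13 to −0.062 with 1 array left out. Relative to all gene names, −0.080 became −0.045 without the filter, −0.040 with quantile normalization, and −0.11 to −0.044 with 1 array left out. For complexes I, II, III, IV, and V, quantile normalization gave −0.059, −0.11, −0.082, −0.063, and −0.0065, and spike-in scaling gave −0.31, −0.34, −0.35, −0.32, and −0.29, with −0.19 for the assembly factors. Median centering gave −0.17 for II and −0.15 for IV, normexp gave −0.15 for I, −0.18 for II, and −0.13 for V, and no filter gave −0.058 for IV. With 1 array left out, medians ranged from −0.13 to −0.060 for complex I, −0.16 to −0.11 for II, −0.19 to −0.11 for III, −0.15 to −0.080 for IV, −0.12 to −0.058 for V, and −0.020 to 0.059 for the assembly factors. The cause was not tested for any of these. Without Cox4i2, Cox6a2, Cox6b2, and Cox7a1, an alternative chosen after seeing the data, the members' median was −0.10.

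Over all tested probes, samples with the same replicate number did not deviate together (r = 0.0273), and the main fit did not pair them. Among the members, however, the median deviation from the ID8G mean was higher on replicate 1 in both lines. It was 0.01 and −0.01 on ID8G replicates 1 and 2, and −0.06 and −0.13 on GO2 replicates 1 and 2. Whether the members deviate together by replicate number was not tested. With the replicate block, 7 members were lower and 1 higher.

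With 2 arrays per line, differences of the size seen in most members are often missed, and SEs of the members ranged from 0.05 to 0.33. Probes can also bind transcripts of near-identical copies, which was not tested. Levels are relative to the 75th percentile, and absolute amounts of RNA per cell were not measured.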
